A study of Mus musculus with 6 samples.

Results

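The Myc and Max network is a family of basic helix-loop-helix leucine zipper factors that compete for a shared partner, Max. The genes described here are the 9 rows of the count files with the symbols *Myc*, *Mycn*, *Max*, *Mxd1*, *Mxd3*, *Mxd4*, *Mxi1*, *Mnt* and *Mlx*. They were chosen by symbol out of 24223 genes, and all 9 were among the 13607 genes tested. RNA-Seq was performed on 6 mouse libraries, 2 each from Naive, Th17 and Th1 cells. Naive cells were CD4+CD44- T cells taken from the pooled spleens and lymph nodes of C57BL/6 mice between 1 and 2 months of age, and were not activated. Th17 and Th1 cells were made from such cells by activation through CD3 and CD28, with plate-bound and soluble antibodies or with beads, and were collected on day 5 of culture. The Th1 medium held anti-IL-4, IL-12 and IL-2, and the Th17 medium held anti-IL-4, anti-IFN-γ, TGF-β, IL-6, IL-1β and IL-23. The sources used here name no engineered allele. Both cultured cell types were activated, given cytokines and kept in culture, so these cannot be told apart as sources of a difference from Naive. The 2 media differed in several cytokines and antibodies, among them IL-2, which was added for Th1 alone.

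A dimer of Myc and Max binds the E-box CACGTG and recruits acetyltransferase complexes, which raises transcription of genes for ribosome assembly, nucleotide synthesis and glycolysis. Mxd1, Mxd3, Mxd4, Mxi1 and Mnt take the place of Myc on Max and recruit Sin3 and histone deacetylases, which lowers transcription of the same genes. Mlx is a parallel partner that dimerizes with some of the repressors and with the glucose-sensing factors Mlxip and Mlxipl. In T cells, Myc is switched on by antigen receptor signals and sustained by cytokines such as IL-2, and it is needed for the growth of activated cells before they divide.

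Several of these genes carry the E-box in their own promoters. RefSeq promoter windows on GRCm38.p6, which run from 250 bases before to 50 bases after the start of a gene, were held for 8 of the 9 genes (not for *Myc*). The motif searched was CACGTG, which reads the same on both strands. It was present in 4 of the 8 windows (50%), against 2349 of all 32851 windows (7.15%) and 1184 of the 10249 tested genes with a window (11.6%). The 4 sites are shown because they lie in *Max*, *Mlx* and their partners *Mnt* and *Mxd4*, each with the E-box in capitals and 12 bases on either side.
*Max*: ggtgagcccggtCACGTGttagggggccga
*Mxd4*: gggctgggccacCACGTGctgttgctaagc
*Mnt*: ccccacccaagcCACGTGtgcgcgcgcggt
*Mlx*: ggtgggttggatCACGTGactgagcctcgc
The *Max* stretch is on the minus strand of chr12:76962234-76962263, with an E-box that begins 3 bases before the start and spans it. In *Mxd4* the stretch is on the minus strand of chr5:34187912-34187941, with an E-box that begins 219 bases before the start. In *Mnt* it is on the plus strand of chr11:74830789-74830818, 123 bases before the start. In *Mlx* it is on the plus strand of chr11:101087238-101087267, 40 bases before the start. No CACGTG was found in the windows of *Mycn*, *Mxd1*, *Mxd3* and *Mxi1*. Distances are counted from the RefSeq start of each window, which is a different base from the end of the GENCODE gene given further on. A match describes the letters in these windows and was not measured as binding.

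The depth ranged from 17742158 to 69080017 counts per library, and replicate 1 was the deeper library of each cell type. Levels are given as CPM, which are counts scaled to the size of each library with TMM factors. Fold changes are on the log2 scale with their standard error (SE), and a gene was called where edgeR's quasi-likelihood F-test gave a Benjamini-Hochberg adjusted p under 0.01 with an absolute log2 fold change above 1. With 2 libraries per cell type, an exact two-sided permutation test of a single gene cannot give a p under 0.33. The cell types carried their defining markers: the summed level of 6 Th17 markers was 2048 and 2523 CPM in Th17 and at most 10.7 CPM elsewhere, and that of 6 Th1 markers was 2454 and 2096 CPM in Th1 against 133.5 to 639 CPM elsewhere. *Ccr7*, a homing receptor of resting T cells named after its values were seen, did not separate the cell types, at 296 and 396 CPM in Naive, 323 and 370.0 CPM in Th17 and 346 and 523 CPM in Th1. It is 1 of 6 resting T cell markers looked at, and not all of the others followed it. Transcripts of other cells were also present. The 15 neutrophil genes in the files summed to 3381 and 3203 CPM in Th17, against 380.3 and 224 CPM in the Naive pair and no more than 99.6 CPM in Th1. Erythroid genes summed to 1254 and 186 CPM in Naive and at most 13.1 CPM in the cultured cells, with 4 globin genes listed at 0 in all libraries. Macrophage genes reached 295 and 877 CPM in Th17, against at most 41.0 CPM in the other cell types. Most of that sum came from *Lyz2*, at 223 and 762 CPM in Th17, with *Itgam* next at 54.2 and 70.2 CPM. *Csf1r* was at 5.34 and 11.7 CPM in Th17 and 7.41 and 4.80 CPM in Naive. Mast cell or basophil genes reached 283 and 619 CPM in Th17, against at most 226 CPM in the other cell types. B cell genes stayed at or under 27.9 CPM. The part of these cells in the levels below was not tested. In bulk RNA, fewer cells that express a gene and less RNA per cell cannot be told apart.

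*Myc*, the activating partner of Max, was the 1 member called between the cultured cell types. Its gene lies on chromosome 15 (61985391 to 61990374, plus strand, GRCm38) and has no exon in common with another gene. *Myc* was measured at 173 and 137 CPM in Naive, 84.2 and 74.7 CPM in Th17 and 272 and 529 CPM in Th1. The libraries of the 3 cell types did not overlap, with Th17 lowest and Th1 highest, and the Th1 pair was the most spread. The Naive mean was 155 ± 25.5 CPM, the Th17 mean 79.4 ± 6.74 CPM and the Th1 mean 401 ± 181 CPM (SD over 2 libraries). *Myc* was higher in Th1 than in Th17 by 2.33 on the log2 scale (SE 0.35, adjusted p = 0.0027). Against Naive it stood at 1.37 in Th1 (SE 0.34, adjusted p = 0.023), short of the threshold of 0.01 but past it with DESeq2 (adjusted p = 0.0020). In Th17 against Naive the log2 fold change was -0.97 (SE 0.34, adjusted p = 0.080). The call between Th1 and Th17 rested on all 4 of their libraries but Th1 replicate 1. The log2 fold change was 2.42 without Th17 replicate 1 (adjusted p = 0.021), 2.25 without Th17 replicate 2 (adjusted p = 0.035) and 1.78 without Th1 replicate 2 (adjusted p = 0.011), none of which passed.

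*Mycn*, the paralog best known from embryonic tissue and neuroblastoma, was close to the bottom of the range. It lies on chromosome 12 (12936093 to 12941914, minus strand) and was measured at 10.6 and 3.81 CPM in Naive, 9.09 and 6.85 CPM in Th17 and 12.7 and 7.40 CPM in Th1. These rest on 77 to 820 counts per library. The ranges of the 3 cell types overlapped, and in each of them replicate 1 was higher. The log2 fold changes were 0.13 (95% interval -1.0 to 1.26) in Th17 and 0.47 (-0.66 to 1.60) in Th1 against Naive, and 0.34 (-0.79 to 1.47) between Th1 and Th17. A difference of up to about these bounds was not detectable with this spread.

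*Max*, the obligate partner of Myc and of the repressors, has its gene on chromosome 12 (76937269 to 76962201, minus strand). It was measured at 151 and 171 CPM in Naive, 98.5 and 101.3 CPM in Th17 and 202 and 231 CPM in Th1. As with *Myc*, each Th17 library was below and each Th1 library above both Naive libraries. The log2 fold change between Th1 and Th17 was 1.12 (SE 0.25, adjusted p = 0.018), which was not called by edgeR and was called by DESeq2 (adjusted p = 0.00022). Against Naive it was -0.69 in Th17 (SE 0.25, adjusted p = 0.088) and 0.43 in Th1 (SE 0.25, adjusted p = 0.30). *Mnt*, the most widely expressed of the repressors, had the same order of libraries. From its gene on chromosome 11 (74830920 to 74845725, plus strand), transcripts were measured at 69.3 and 96.2 CPM in Naive, 62.1 and 39.1 CPM in Th17 and 105 and 142 CPM in Th1. Its log2 fold change was 1.29 between Th1 and Th17 (SE 0.32, adjusted p = 0.025), again called only by DESeq2 (adjusted p = 0.0034). In Th17 against Naive it was -0.71 (adjusted p = 0.15) and in Th1 against Naive 0.58 (adjusted p = 0.25). Thus 3 of the 9 genes, *Myc*, *Max* and *Mnt*, had Th17 below and Th1 above both Naive libraries, an order held by 607 of the 13607 genes (4.46%). This order is of CPM scaled by TMM. With library size alone, the Naive and Th1 libraries of *Mnt* overlapped.

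**Figure D1:**
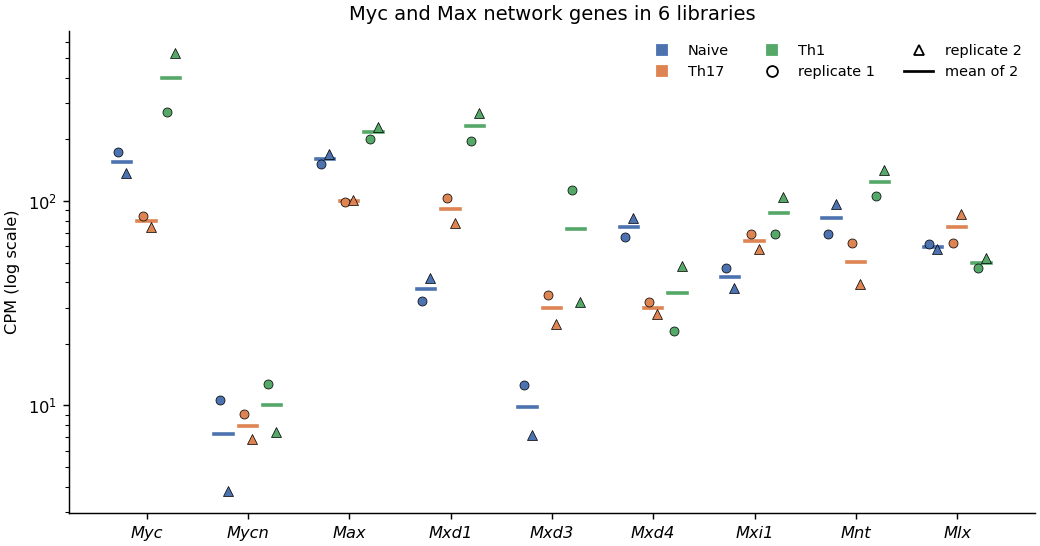
Levels of the 9 network genes in each of the 6 libraries, in CPM on a log axis, with colour for the cell type, circles for replicate 1, triangles for replicate 2 and a line at the mean of the pair. *Myc* runs from 74.7 CPM in a Th17 library to 529 CPM in a Th1 library, *Mxd1* from 32.3 to 271 CPM, and *Mycn* stays at or under 12.7 CPM.

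The Mxd repressors did not move as a block. *Mxd1*, which is classically induced when cells leave the cycle and differentiate, was the firmest call among the 9 genes. It lies on chromosome 6 (86647042 to 86669161, minus strand) and was measured at 32.3 and 42.0 CPM in Naive, 104 and 78.4 CPM in Th17 and 196 and 271 CPM in Th1. The libraries of the 3 cell types did not overlap, and the order was Naive, Th17, Th1. *Mxd1* was higher in Th1 than in Naive by 2.65 on the log2 scale (SE 0.31, adjusted p = 0.00050), and leaving out any 1 library gave 2.40 to 2.90 with the call kept. In Th17 against Naive it stood at 1.29 (SE 0.29, adjusted p = 0.018) and in Th1 against Th17 at 1.36 (SE 0.29, adjusted p = 0.014). Both of these passed with DESeq2 (adjusted p = 0.00094 and 0.00043) and not with edgeR.

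*Mxd3*, the member of the family that is expressed in dividing cells, was higher in Th1 than in Naive. Its gene, on chromosome 13 (55325168 to 55329823, minus strand), was measured at 12.6 and 7.18 CPM in Naive, 34.9 and 25.1 CPM in Th17 and 113 and 32.2 CPM in Th1. Both cultured cell types lay above Naive, but Th1 replicate 2 fell inside the Th17 range while Th1 replicate 1 was far above it. The log2 fold change was 2.87 in Th1 against Naive (SE 0.55, adjusted p = 0.0066), 1.59 in Th17 against Naive (SE 0.53, adjusted p = 0.067) and 1.28 between Th1 and Th17 (SE 0.52, adjusted p = 0.12). The value in Th1 against Naive fell to 1.73 without Th1 replicate 1 (adjusted p = 0.019), and the call was also lost without Naive replicate 1 (3.34, adjusted p = 0.014) or Naive replicate 2 (2.53, adjusted p = 0.030). An exon of *Mxd3* overlaps one of *Prelid1* on the opposite strand, and the sources differ on the strand setting of the counting, so reads there could belong to either gene.

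The split within Th1 also held for genes of the cell cycle. The summed level of 12 of them (such as *Mki67*, *Top2a* and *Cdk1*) was 5066 CPM in Th1 replicate 1 and 1547 CPM in Th1 replicate 2. The Naive libraries held 1693 and 827 CPM of these genes, and the Th17 libraries 1678 and 1527 CPM. None of the 12 was called in any comparison by edgeR, 8 had an unadjusted p under 0.05 in Th1 against Naive, all of them higher, and DESeq2 called 4 (*Mki67*, *Top2a*, *Ccna2*, *Plk1*). The share of all tested genes with an unadjusted p under 0.05 was 29.9% in that comparison, with 15.7% higher and 14.3% lower in Th1. DESeq2 called 14.1% of all genes there. The median log2 fold change of the 12 cell cycle genes was 0.39 in Th17 and 1.60 in Th1 against Naive. It was 0.82 between Th1 and Th17. The part of the cell cycle in the level of *Mxd3* was not tested.

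**Figure D2:**
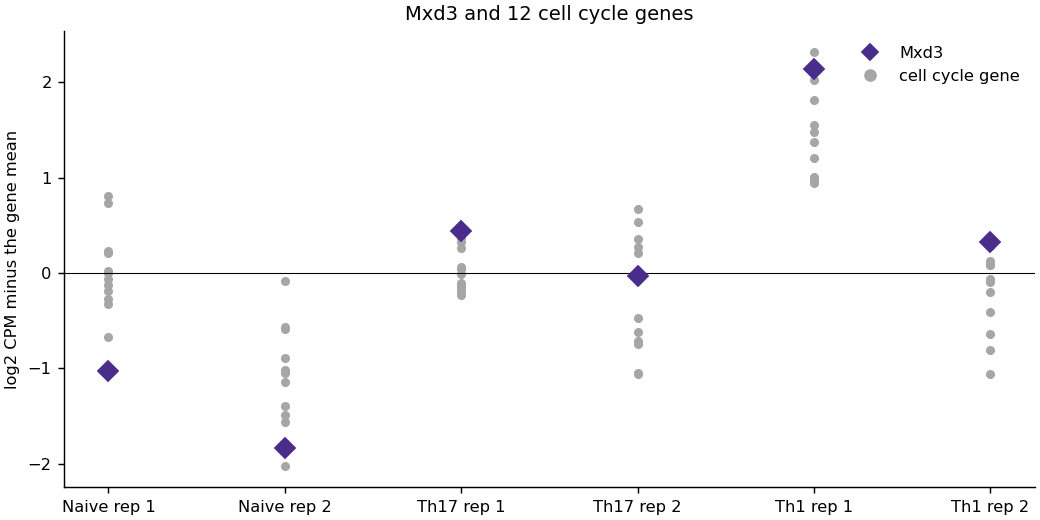
Log2 CPM of *Mxd3* (diamonds) and of 12 cell cycle genes (grey circles) in each library, each gene centred on its own mean over the 6 libraries. *Mxd3* stands at 2.14 in Th1 replicate 1 and 0.32 in Th1 replicate 2. The 12 cell cycle genes run from 0.94 to 2.32 and from -1.06 to 0.29 there. In the Naive libraries *Mxd3* stands at -1.03 and -1.84. The 12 cell cycle genes run from -0.67 to 0.81 and from -2.03 to -0.09 there.

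*Mxd4*, usually found in resting and differentiated cells, stood opposite to *Mxd1* and *Mxd3*. It lies on chromosome 5 (34173883 to 34187720, minus strand) and was measured at 67.0 and 82.6 CPM in Naive, 32.2 and 28.0 CPM in Th17 and 23.2 and 48.1 CPM in Th1. All 4 cultured libraries were below both Naive libraries, and the Th1 range enclosed the Th17 range. The log2 fold change against Naive was -1.31 in Th17 (SE 0.36, adjusted p = 0.035) and -1.07 in Th1 (SE 0.35, adjusted p = 0.067). Neither was called by edgeR, and DESeq2 called the first (adjusted p = 0.0094). *Mxi1*, also called Mad2, stood the other way. Its gene is on chromosome 19 (53310518 to 53375810, plus strand) and was measured at 47.0 and 37.6 CPM in Naive, 69.2 and 58.6 CPM in Th17 and 68.9 and 105 CPM in Th1. All cultured libraries were above both Naive libraries. The log2 fold change was 0.59 in Th17 against Naive (SE 0.29, adjusted p = 0.18) and 1.04 in Th1 against Naive (SE 0.29, adjusted p = 0.037), the second called by DESeq2 only (adjusted p = 0.0095). Exons of *Mxd4* and *Mxi1* overlap those of *Gm42846* and *Gm10197* on the opposite strand.

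*Mlx*, the partner that links the repressors to the glucose-sensing factors, was the single member with Th17 highest and Th1 lowest. It lies on chromosome 11 (101087277 to 101092207, plus strand), with exons that overlap *Psmc3ip* on the opposite strand. It was measured at 61.5 and 58.2 CPM in Naive, 62.0 and 86.6 CPM in Th17 and 47.0 and 52.3 CPM in Th1. The lower Th17 library was within 1 CPM of a Naive library. The log2 fold change between Th1 and Th17 was -0.58 (SE 0.27, adjusted p = 0.16), with a 95% interval of -1.18 to 0.01. The 2 known targets of Mlx dimers in the list used here were not called: *Txnip*, an inhibitor of glucose uptake, was at 378 and 543 CPM in Naive, 550.2 and 803 CPM in Th17 and 524 and 801 CPM in Th1, and *Arrdc4* was between 2.97 and 13.0 CPM.

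Over the 9 genes, edgeR called none in Th17 against Naive, 2 in Th1 against Naive (*Mxd1* and *Mxd3*, both higher) and 1 in Th1 against Th17 (*Myc*, higher in Th1). The share of all tested genes called higher was 4.01%, 4.64% and 2.70% in these comparisons, and the share called lower was 1.43%, 2.81% and 2.83%. In Th17 against Naive, 6 of the 9 genes had an unadjusted p under 0.05, of which 2 were higher and 4 lower, where 33.3% of all genes passed that limit, 17.2% higher and 16.1% lower. In Th1 against Naive it was 5 of the 9 genes, 4 higher and 1 lower, beside 29.9% of all genes, 15.7% higher and 14.3% lower. In Th1 against Th17 it was 5 of the 9 genes, all higher, beside 33.8% of all genes, 17.2% higher and 16.6% lower. At an adjusted p under 0.05 the counts were 2, 4 and 4 of 9, beside 15.2%, 15.9% and 15.5% of all genes. DESeq2 called the same numbers, 2, 4 and 4, beside 12.6%, 14.1% and 13.2% of all genes. In Th17 these were *Mxd1* (higher) and *Mxd4* (lower), in Th1 against Naive *Myc*, *Mxd1*, *Mxd3* and *Mxi1*, and in Th1 against Th17 *Myc*, *Max*, *Mxd1* and *Mnt*. The libraries did not overlap for 8, 8 and 5 of the 9 genes, where 65.5%, 56.0% and 66.6% of all genes did not overlap. The median log2 fold change of the 9 was 0.13, 0.58 and 1.12 in the 3 comparisons against -0.02, -0.02 and -0.03 for all genes. The 3 comparisons share libraries with each other and are not independent.

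**Figure D3:**
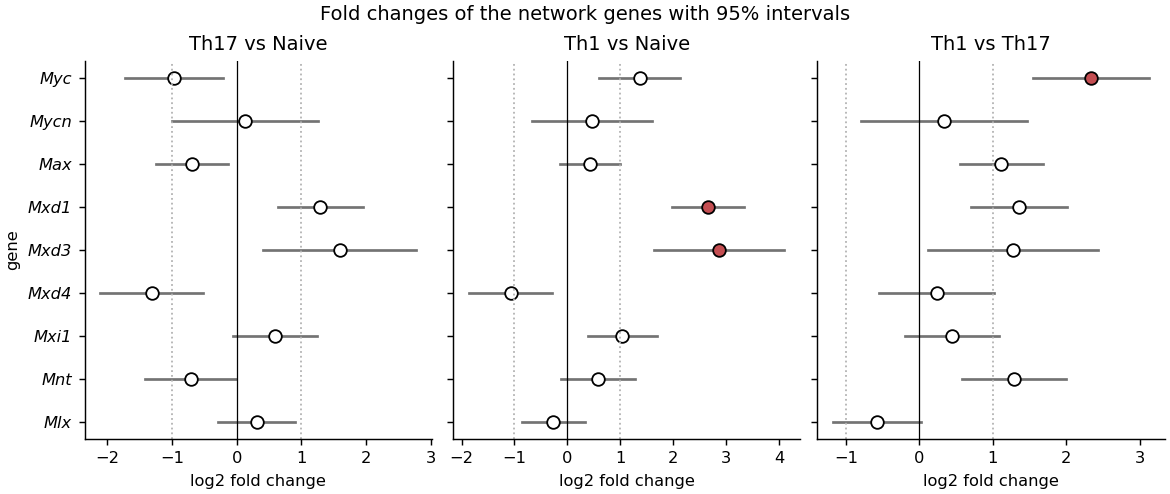
Log2 fold changes of the 9 genes in the 3 comparisons, with bars for the 95% interval of each, filled circles for called genes and dotted lines at -1 and 1. Called are *Mxd1* at 2.65 and *Mxd3* at 2.87 in Th1 against Naive, and *Myc* at 2.33 in Th1 against Th17.

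Levels were then compared between the genes, as CPM per kb of merged exons, to describe how much of each partner was present beside *Max*. In Naive the order was *Myc* (57.2 ± 9.37), *Max* (44.7 ± 3.76), *Mlx* (29.9 ± 1.16), *Mnt* (17.9 ± 4.11), *Mxd4* (8.82 ± 1.30), *Mxi1* (6.20 ± 0.970), *Mxd1* (5.26 ± 0.966), *Mxd3* (4.17 ± 1.61) and *Mycn* (2.19 ± 1.46), as CPM per kb (SD, n = 2). The libraries of *Myc* and *Max* stood apart there (63.8 and 50.5 against 42.1 and 47.4), while those of *Mxi1* and *Mxd1*, of *Mxd1* and *Mxd3* and of *Mxd3* and *Mycn* overlapped. In Th17, *Mlx* (37.2 ± 8.69), *Myc* (29.2 ± 2.48) and *Max* (27.8 ± 0.545) led, and the ranges of *Myc* and *Max* overlapped, as did those of *Mxd1*, *Mxd3* and *Mnt* at ranks 4 to 6. In Th1, *Myc* (147 ± 66.8) and *Max* (60.2 ± 5.78) were followed by *Mxd1* (33.0 ± 7.48), *Mxd3* (30.6 ± 24.1) and *Mnt* (26.7 ± 5.58), and the ranges of these last 3 overlapped. *Mxd1* thus stood at rank 7 of 9 in Naive, rank 4 in Th17 and rank 3 in Th1, and *Mxd4* at rank 5 in Naive and rank 8 in both others. The first ranks depended on the gene length used: with the longest transcript in place of merged exons, *Max* was at rank 1 and *Myc* at rank 2 in Naive, and *Max* at rank 1 and *Myc* at rank 3 in Th17.

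Among the 5 repressor genes, the share of the summed CPM per kb that came from *Mnt* was 37.8% and 46.2% in the Naive pair, 23.7% and 20.1% in the Th17 pair and 20.5% and 29.6% in the Th1 pair. That of *Mxd1* was 11.5% and 13.2% in the Naive pair, 25.8% and 26.4% in the Th17 pair and 24.9% and 36.9% in the Th1 pair. That of *Mxd4* was 19.9% and 21.6% in the Naive pair, 6.69% and 7.86% in the Th17 pair and 2.46% and 5.47% in the Th1 pair. The share of *Mxd1* was higher and those of *Mxd4* and *Mnt* were lower in every cultured library than in both Naive libraries. For *Mnt* this holds for the share only: its level was 15.0 and 20.8 CPM per kb in Naive and 22.8 and 30.7 CPM per kb in Th1. The 5 genes together came to 39.6 and 45.0 CPM per kb in the Naive pair, 56.7 and 42.0 in the Th17 pair and 111 and 104 in the Th1 pair.

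The level of *Myc* and *Mycn* over that of the 5 repressors was 1.69 and 1.15 in the Naive pair, 0.595 and 0.704 in the Th17 pair and 0.937 and 1.90 in the Th1 pair. The Th17 libraries were the lowest, and the Th1 range enclosed the Naive range, so that the means of Naive (1.42 ± 0.383) and Th1 (1.42 ± 0.681) did not differ beyond their spread. The repressors over *Max* were at 0.942 and 0.949 in the Naive pair, 2.07 and 1.49 in the Th17 pair and 1.98 and 1.61 in the Th1 pair, higher in every cultured library. For *Myc* and *Mycn* over *Max*, the Naive libraries gave 1.59 and 1.09, the Th17 libraries 1.23 and 1.05, and the Th1 libraries 1.86 and 3.06. The means were 1.34, 1.14 and 2.46, and with the longest transcript as length they were 0.843, 0.719 and 1.54, so that Naive and Th17 then lay below 1. All of these are ratios of transcripts scaled by length, and protein was not measured.

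**Figure D4:**
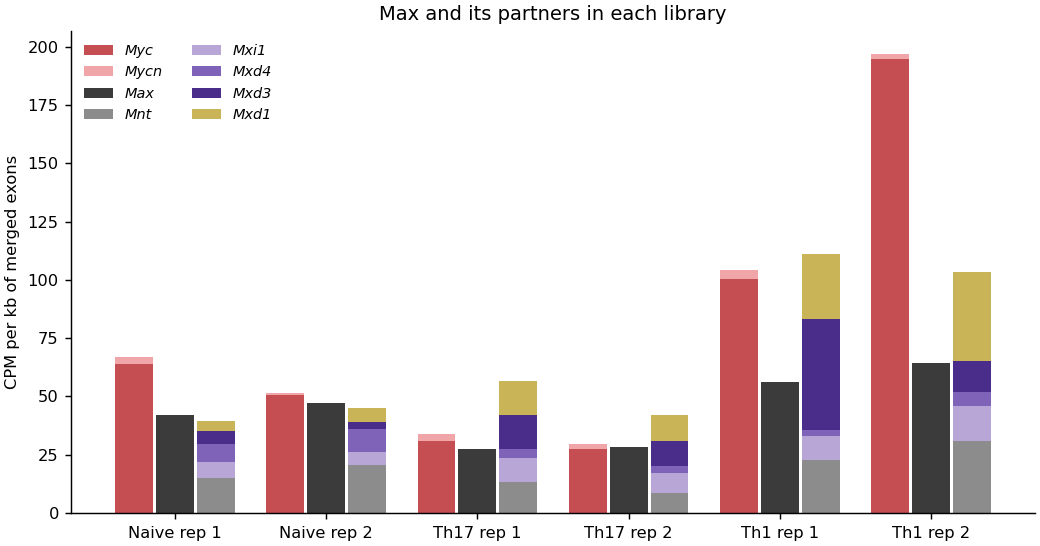
Levels in CPM per kb of merged exons in each library, as stacked bars for *Myc* with *Mycn* (left), a bar for *Max* (middle) and stacked bars for the 5 repressors (right). The repressors reach 111 and 104 in the Th1 libraries and 39.6 and 45.0 in the Naive libraries, and *Myc* with *Mycn* reaches 197 in Th1 replicate 2.

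The partners and cofactors that the network acts through gave no call by edgeR. None of 6 other E-box factors tested (*Mycl*, *Mga*, *Mlxip*, *Usf1*, *Usf2* and *Tfap4*) was called by edgeR or by DESeq2. An unadjusted p under 0.05 was found for 1, 2 and 0 in Th17 against Naive, Th1 against Naive and Th1 against Th17. Of all genes tested, 33.3%, 29.9% and 33.8% passed that limit in these comparisons. *Mlxip*, the glucose-sensing partner of Mlx, was measured at 75.9 and 136 CPM in Naive, 56.0 and 35.7 CPM in Th17 and 80.2 and 67.8 CPM in Th1. *Mlxipl*, its paralog, was at 0.230 CPM or less and was not tested. None of 14 cofactors was called by edgeR, with 6, 0 and 4 at an unadjusted p under 0.05. All 6 of them were lower in Th17 than in Naive, as were 16.1% of all genes at that limit. *Kat2a*, the acetyltransferase Gcn5, was the 1 cofactor called by DESeq2 in Th17 against Naive, and again in Th1 against Th17. It stood at 95.3 and 103 CPM in Naive, 53.2 and 36.1 CPM in Th17 and 93.2 and 91.2 CPM in Th1. Of all genes, DESeq2 called 12.6% in Th17 against Naive and 13.2% in Th1 against Th17. The corepressors *Sin3a* and *Sin3b* had log2 fold changes of -0.49 and 0.24 in Th17 and -0.16 and 0.02 in Th1 against Naive. None of 8 genes that act on the stability of Myc was called by edgeR, with 3, 1 and 1 at an unadjusted p under 0.05. *Gsk3b*, a kinase that marks Myc for degradation, was called by DESeq2 in Th1 against Th17 and stood at 97.3 and 135 CPM in Naive, 70.3 and 42.8 CPM in Th17 and 115 and 134 CPM in Th1. *Fbxw7*, the ubiquitin ligase subunit that then binds Myc, stayed between 16.8 and 26 CPM.

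Myc is known to activate genes of ribosome assembly and of metabolism. Of 26 genes of nucleolar ribosome assembly, edgeR called none in any comparison. The numbers at an unadjusted p under 0.05 were 11 in Th17 against Naive and 4 in Th1 against Naive, all lower. In Th1 against Th17 there were 3 higher and 2 lower. Of all genes tested, 16.1% were lower at that limit in Th17 against Naive and 14.3% in Th1 against Naive. In Th1 against Th17, 17.2% were higher and 16.6% lower. The median log2 fold change of the 26 genes was -0.51 in Th17 and -0.31 in Th1 against Naive. It was 0.06 between Th1 and Th17, and 19 and 23 of the 26 were below 0 against Naive. Of all genes tested, 49.2% were above 0 in Th17 against Naive and 48.9% in Th1 against Naive. DESeq2 called 2 lower in Th17 (*Polr1b* and *Tcof1*), 1 lower in Th1 (*Ppan*) and 1 higher in Th1 than in Th17 (*Ncl*, nucleolin). Of 13607 genes, it called 670 lower in Th17 against Naive, 807 lower in Th1 against Naive and 925 higher in Th1 than in Th17. *Ncl* was at 919 and 609 CPM in Naive, 454 and 372 CPM in Th17 and 954 and 983 CPM in Th1. The summed level of the 26 genes was 5837 and 3930.3 CPM in the Naive pair, 3560.2 to 3713 CPM in Th17 and 4506 and 4236 CPM in Th1, so that the Naive libraries differed from each other by more than Th17 and Th1 differed. E-boxes lay in the promoter windows of 4 of 20 of these genes (20.0%).

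Of 20 genes of metabolism and growth, the median log2 fold change was -0.07, -0.02 and -0.04 in the 3 comparisons, and E-boxes lay in 9 of 17 windows (52.9%). *Hk2*, the hexokinase of activated cells, was called in both cultured cell types. It was measured at 9.28 and 5.99 CPM in Naive, 40.2 and 23.8 CPM in Th17 and 99.9 and 64.1 CPM in Th1, with no overlap. It was higher by 2.06 in Th17 (SE 0.38, adjusted p = 0.0068) and by 3.42 in Th1 (SE 0.40, adjusted p = 0.00051) than in Naive. The call in Th17 was lost without Naive replicate 1 (2.42, adjusted p = 0.011), Naive replicate 2 (1.79, adjusted p = 0.033) or Th17 replicate 1 (1.63, adjusted p = 0.046) and with library size alone, and the call in Th1 was kept under each alternative tried. *Ccnd2*, a D-type cyclin, was the 1 gene of this list called by edgeR in Th1 against Th17. It was measured at 300.1 and 332 CPM in Naive, 144 and 132 CPM in Th17 and 385 and 409.7 CPM in Th1, in the same order of cell types as *Myc*, *Max* and *Mnt*. With library size alone, the Naive and Th1 libraries of *Ccnd2* overlapped. Its log2 fold change was 1.53 in Th1 against Th17 (SE 0.26, adjusted p = 0.0050) and -1.20 in Th17 against Naive (SE 0.26, adjusted p = 0.015). Without any 1 of the 4 Th1 and Th17 libraries the first stayed between 1.47 and 1.59 but was no longer called (adjusted p of 0.016 to 0.068), nor was it with library size alone. *Odc1*, which makes polyamines, was instead highest in Th17, at 225 and 79.4 CPM in Naive, 556 and 626 CPM in Th17 and 405 and 275 CPM in Th1 (log2 fold change of 1.95 in Th17 against Naive, adjusted p = 0.020). *Ldha*, lactate dehydrogenase A, was at 933 and 619 CPM in the Naive pair, 1504 and 1569.6 CPM in Th17 and 1957 and 1857 CPM in Th1 (log2 fold change of 1.30 in Th1, adjusted p = 0.023). *Odc1* and *Ldha* were named after their values were seen, and both were called by DESeq2 in Th17 against Naive. In the 3 comparisons DESeq2 called 4, 2 and 3 of the 20 genes, beside 12.6%, 14.1% and 13.2% of all genes. Those in Th1 against Th17 were *Hk2*, *Slc7a5* and *Ccnd2*, all higher in Th1. An unadjusted p under 0.05 was found by edgeR for 8, 5 and 5 of the 20, beside 33.3%, 29.9% and 33.8% of all genes.

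Genes that Myc is known to hold down went both ways. *Cdkn1a*, which encodes the cell cycle inhibitor p21, was at 1.88 and 0.644 CPM in Naive, 128 and 65.0 CPM in Th17 and 128 and 102 CPM in Th1. It was higher than in Naive by 6.14 in Th17 (SE 0.54, adjusted p = 0.00015) and by 6.40 in Th1 (SE 0.55, adjusted p = 0.00012), the highest values among all genes listed here for the network. The 2 cultured cell types did not differ in it beyond their spread (0.25, 95% interval -0.69 to 1.20). *Cdkn2b*, which encodes the inhibitor p15, was called higher in both as well. It rose from 17 and 0 counts in Naive to 5.88 and 4.98 CPM in Th17 and 5.26 and 4.74 CPM in Th1. Its call in Th17 was lost without Th17 replicate 1 (4.93) or Th17 replicate 2 (5.17). Its call in Th1 was lost with all libraries thinned to the smallest (4.28, adjusted p = 0.011 by edgeR). With at least 10 counts needed in every library it was not tested. *Gadd45a*, a stress response gene, fell in Th1, from 15.2 and 10.6 CPM in Naive to 2.00 and 2.28 CPM (log2 fold change of -2.60, SE 0.41, adjusted p = 0.0027), and stood at 3.93 and 4.58 CPM in Th17 (-1.60, adjusted p = 0.025). Its call in Th1 was lost without Naive replicate 1 (-2.32, adjusted p = 0.011) or Th1 replicate 1 (-2.46, adjusted p = 0.017). The other 3 genes, *Cdkn1b*, *Ndrg1* and *Ndrg2*, were not called by edgeR. *Cdkn1b*, which encodes p27, was at 191 and 239 CPM in Naive, 404 and 515 CPM in Th17 and 266 and 311 CPM in Th1, and DESeq2 called it higher in Th17 than in Naive (adjusted p = 0.0019). *Ndrg1* was at 18.6 and 21.4 CPM in Naive, 21.3 and 17.8 CPM in Th17 and 38.6 and 142 CPM in Th1, where replicate 2 was far above replicate 1, and DESeq2 called it higher in Th1 against each of the others. None of 5 windows of these genes held CACGTG.

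**Figure D5:**
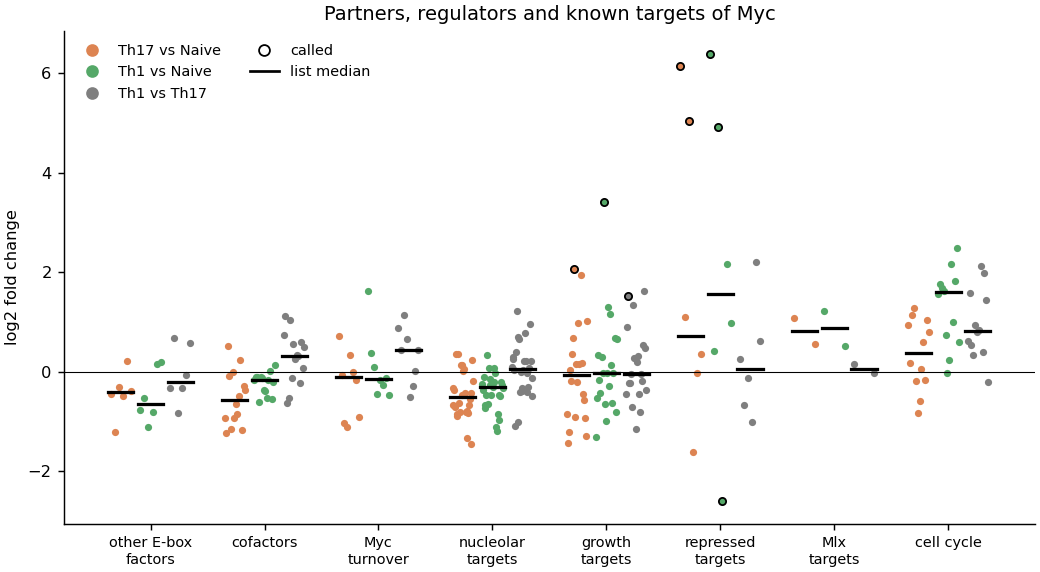
Log2 fold changes of the genes in 8 lists that surround the network, with colour for the comparison, black outlines for called genes and a line at the median of each list. Called genes are *Hk2* and *Ccnd2* among the growth targets, and *Cdkn1a*, *Cdkn2b* and *Gadd45a* among the repressed targets, with *Cdkn1a* at 6.14 and 6.40.

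The genes with the most similar pattern were sought for the 3 called members, by the root mean square difference of log2 CPM over the 6 libraries after each gene was centred on its own mean, among 13606 other genes. For *Myc* they were *Smim24* (0.190), *Vps37b* (0.247) and *Tex2* (0.262), where *Myc* itself varied by 0.972 about its mean. *Smim24* was at a low level, between 1.41 and 13.0 CPM. *Vps37b* was measured at 151 and 201 CPM in Naive, 80.5 and 69.1 CPM in Th17 and 261 and 512 CPM in Th1, with Th1 replicate 2 highest as in *Myc*. For *Mxd1* they were *Icam1* (0.0738), *2900041M22Rik* (0.143) and *Il3ra* (0.159), and *Mxd1* itself varied by 1.10. *2900041M22Rik* was near the bottom of the range, between 0.294 and 2.97 CPM, so its likeness rests on few counts. *Icam1*, the adhesion molecule that binds LFA-1, was at 33.8 and 39.1 CPM in Naive, 98.4 and 78.2 CPM in Th17 and 178 and 247 CPM in Th1. For *Mxd3* they were *Nusap1* (0.185), *Fam83d* (0.212) and *Cep55* (0.220), and *Mxd3* varied by 1.24. All 3 of these encode proteins of the mitotic spindle or of cell separation, and *Nusap1* was at 37.6 and 19.1 CPM in Naive, 76.1 and 71.3 CPM in Th17 and 252 and 70.9 CPM in Th1. Likeness over 6 libraries of 3 cell types describes these libraries and is shared by genes with like changes in any of them.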

How the data were processed

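RNA-Seq counts of 6 mouse libraries were analysed. The deposited values are whole-number counts per gene, made by the authors from reads mapped to mm10 with Hisat2 (2.2.1) and counted with HTSeq (0.13.5), with no normalization. According to the methods, duplicates were removed and HTSeq was run by default. The supplementary code shows no such removal and a reverse-strand option. The 2 libraries of a cell type are described as independent biological replicates.

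edgeR 4.0.16 (with limma 3.58.1, under R 4.3.3) was used for the tests, with DESeq2 1.42.0 as an alternative. filterByExpr kept 13607 of 24223 genes, which were scaled by TMM and fitted together by the quasi-likelihood method over the 6 libraries with no covariate beside cell type. Calls needed a Benjamini-Hochberg adjusted p under 0.01 over all genes tested and an absolute log2 fold change above 1. Log2 CPM used a prior count of 2. Gene lengths and positions came from GENCODE on GRCm38, and promoter windows from RefSeq.

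The members, gene lists and rules were chosen with earlier results of these data known. Named were the 9 members, up to 4 called genes per list that exceeded 3 counts in each library, and the 3 genes most like each called member. Other genes were named after their values were seen. Alternatives were DESeq2, RLE factors, library size alone, no count filter, at least 10 counts in every library, a replicate block, only the 4 libraries compared, thinning, an adjusted p under 0.05, each library left out, other gene lengths and ratios without *Mnt*. A block with crossed numbers was added after seeing the data.

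Depth ranged from 17742158 to 69080017 counts, and 3 counts correspond to 0.0440 to 0.190 CPM. Counts describe sequenced reads and not independent molecules. The summed level of the resting T cell markers is not reported here.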

Additional observations from a re-analysis of the deposited data

Results flagged for a closer look

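The changes from Naive in Th17 and in Th1 went opposite ways in every library for 4 of the 9 genes, as they did for 1182 of 13607 genes (8.69%). The 4 genes were picked by this order, so a difference between Th1 and Th17 was built into the choice. The order is of CPM scaled by TMM, and with library size alone *Mnt* did not keep it. No change from Naive was called by edgeR for any of the 4 genes. The difference between the 2 changes is the log2 fold change of Th1 against Th17, since Naive is common to both. It was 2.33 for *Myc* (SE 0.35, adjusted p = 0.0027 by edgeR), 1.12 for *Max* (SE 0.25, adjusted p = 0.018) and 1.29 for *Mnt* (SE 0.32, adjusted p = 0.025), of which *Myc* passed the threshold. It was -0.58 for *Mlx* (SE 0.27, adjusted p = 0.16), with the higher level in Th17. For *Mlx* the lower Th17 library was at 62.0 CPM and the higher Naive library at 61.5 CPM. Neutrophil genes summed to 3381 and 3203 CPM in Th17 and at most 380.3 CPM elsewhere, and their part in the lower levels of *Myc*, *Max* and *Mnt* in Th17 was not tested.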

How the results depend on the processing

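The log2 fold changes of the 9 genes were recomputed under 15 settings in 3 comparisons, which gave 405 values. Of these, 363 kept their direction and side of the threshold, 28 passed it where the value reported did not, 8 no longer passed it and 6 changed direction. The changes of direction were all in values that were not called. For *Mycn* they came from leaving out a library, with ranges of -0.41 to 1.07 in Th17 against Naive, -0.072 to 1.41 in Th1 against Naive and -0.11 to 0.67 in Th1 against Th17. For *Mxd4* in Th1 against Th17, the value was -0.0015 with library size alone and -0.38 to 0.67 with a library left out. Library size alone moved the median of all genes to -0.26 in Th1 against Naive and -0.24 in Th1 against Th17, and called 202 genes higher and 352 lower in Th1 than in Th17, where TMM gave 367 and 385.

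The number of members called was 2, 4 and 4 in Th17 against Naive, Th1 against Naive and Th1 against Th17 with DESeq2 and with an adjusted p under 0.05, and 3, 5 and 5 with no filter on low counts. In Th1 against Naive it was 1 (*Mxd1*) with library size alone and with only the 4 libraries compared, where *Mxd3* did not pass. Leaving out a library gave 0 to 1, 1 to 2 and 0 to 2. The 8 lists held 6, 14, 8, 26, 20, 6, 2 and 12 genes tested, and 3, 4 and 1 of these were called. Of all genes tested, edgeR called 4.01%, 4.64% and 2.70% higher and 1.43%, 2.81% and 2.83% lower. DESeq2 called 11, 11 and 9 list genes, beside 12.6%, 14.1% and 13.2% of all genes. An adjusted p under 0.05 gave 13, 11 and 9, beside 15.2%, 15.9% and 15.5% of all genes. No filter gave 19, 17 and 14 list genes. In Th17 against Naive, library size alone and at least 10 counts in every library each called 2, and in Th1 against Th17 library size alone called 0. Leaving out a library gave 1 to 3, 4 to 8 and 0 to 2 list genes. Over all genes, DESeq2 called 1047 higher and 670 lower in Th17 against Naive, where edgeR called 545 and 194. With no filter, 1203 of 17846 genes were called higher and 951 lower in Th17 against Naive. In Th1 these numbers were 1287 and 972 against Naive and 1188 and 1044 against Th17. The cause of these differences was not tested.

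Replicates of the same number were not paired by the sources, and their deviations correlated at -0.23 between Naive and Th17, 0.17 between Naive and Th1 and 0.08 between Th17 and Th1. With the replicate block, 1 member was called in Th17 against Naive (*Mxd3*, 1.66, adjusted p = 0.0071) and 6, 11 and 6 list genes were called. With the Th17 numbers crossed, 1 member and 6 list genes were called in Th17 against Naive. Over all genes, the replicate block called 706 higher and 329 lower in that comparison, and the crossed block 677 and 386. In Th1 against Naive the replicate block called 839 genes higher and 563 lower, and in Th1 against Th17 it called 492 and 549.

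The ratio of *Myc* and *Mycn* to the repressors was 2.43 in Naive and 0.830 in Th17 without *Mnt*, and 0.558 in Th17 with the longest transcript as length. With that length, *Myc* and *Mycn* over *Max* were 0.843, 0.719 and 1.54 in Naive, Th17 and Th1. Of 27 mean levels, 15 moved beyond their spread with the longest transcript and 4 with library size alone.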

Other observations

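Genes of early blood cells were present in the Naive libraries. *Kit*, a receptor of progenitors and mast cells, was at 99.8 and 29.6 CPM in Naive, 12.8 and 11.4 CPM in Th17 and 23.7 and 22.4 CPM in Th1. *Mpo*, a granule enzyme of neutrophil precursors, was at 251 and 159 CPM in Naive, 68.1 and 58.7 CPM in Th17 and 6.76 and 7.52 CPM in Th1. *Car1* and *Klf1*, genes of red cell precursors, were at 463 and 85.8 CPM and at 97.5 and 16.2 CPM in Naive, and at 1.33 CPM or less in the cultured cells. Naive replicate 1 had the higher level in each of these 4 genes, and also in the 26 nucleolar genes (5837 against 3930.3 CPM) and the 12 cell cycle genes (1693 against 827 CPM). Within the Naive pair, *Myc* was at 173 and 137 CPM and *Mycn* at 10.6 and 3.81 CPM, again higher in replicate 1. *Mxd3*, *Mxi1* and *Mlx* were also higher in replicate 1, while *Max*, *Mxd1*, *Mxd4* and *Mnt* were higher in replicate 2. Whether these follow from the cells sampled was not tested.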
